A study of Mus musculus with 401 samples.

Results

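The 56 libraries described here were pools of cumulus cells from mice at 4 and 14 months in the second set of samples, out of 401 samples in the series. They were chosen by their labels, as all cumulus libraries of that set whose mouse carried a 4-month or a 14-month name, with no measured value used. The 4-month group held 40 libraries of 8 mice and the 14-month group 16 libraries of 5 mice, each library from the cumulus cells of 1 oocyte-cumulus complex. All of these mice were B6D2F1 (C57BL/6 x DBA/2) females kept on the AL diet (ad libitum feeding), and all had been treated to induce hyperovulation. Both ages therefore share the F1 background and a hormone treatment, and neither stands for an unstimulated ovary. The paper names equine chorionic gonadotropin or CARD HyperOva for this treatment. The labels do not say which mouse received which, so a difference in preparation between the ages cannot be checked. Complexes were taken from fully grown follicles, and the oocyte was removed before the cells were lysed as a pool. RamDA-seq, which copies total RNA along whole transcripts, was carried out on plates B1 and B2. Plate B1 held the mice 4mo3, 4mo4, 4mo5, 4mo25, 14mo37, 14mo38 and 14mo39, and plate B2 held 4mo26 to 4mo29, 14mo40 and 14mo41. The 14-month complexes all lay in the last well column of these plates, so that well column and age cannot be told apart.

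Cumulus cells are the granulosa cells that stay attached to the oocyte. They feed it through gap junctions with products of glycolysis, amino acids and cholesterol, which the oocyte makes poorly itself. In return, factors secreted by the oocyte hold cumulus cells in a state with high amino acid uptake, active sterol synthesis and little steroid hormone output, apart from the mural granulosa cells that line the follicle and respond to luteinizing hormone. During follicle growth Amh marks the smaller follicles, whereas the inhibin and activin subunits Inha, Inhba and Inhbb mark later growth.

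Total counts ranged from 593001 to 1075625 (median 854688) per library at 4 months and from 573705 to 993336 (median 883093) at 14 months. The age of a mouse belongs to the animal, so counts were summed per mouse and the 8 and 5 mice were compared with the plate as a covariate (edgeR quasi-likelihood test, adjusted p under 5%), keeping genes counted in 5 or more of the 56 libraries. Levels are CPM, a mouse's summed count scaled to a common library size by TMM factors. Markers of the labelled cell type were high. The summed level of the 20 genes of cumulus and granulosa identity was 17603 to 26668 CPM at 4 months and 20835 to 26987 CPM at 14 months, and that of the oocyte genes tested (5 of 13) was at most 9.42 CPM in any mouse. Summed immune markers were 9.29 to 31.9 CPM at 4 months and 7.80 to 23.4 CPM at 14 months, endothelial markers 7.55 to 21.7 and 3.84 to 14.9 CPM, and theca and stroma markers 99.4 to 303.6 and 168.6 to 254.0 CPM. Of these lists 6 of 12 immune, 5 of 8 endothelial, 10 of 12 theca and 5 of 13 oocyte genes were counted often enough to be tested, and the sums are over these genes. None of them was called at an adjusted p (2, 2, 2 and 1 at an unadjusted p under 0.05, edgeR). In a pool of cells, fewer cells of a kind and less RNA per cell cannot be told apart.

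Of 24563 genes, 185 (0.753%) differed between the ages, with 67 (0.273%) higher and 118 (0.480%) lower at 14 months. Among the decreases, the amino acid transporter Slc38a3, the hyaluronan-binding Itih5, the cyclic AMP phosphodiesterase Pde7b and the laminin chains Lama5 and Lamb1 were all lower at 14 months. Among genes with a mean of at least 10 CPM, the largest increase was that of Pappa, a protease that frees insulin-like growth factors from their binding proteins. The difference exceeded a log2 fold change of 1 in either direction in 99 genes, and 157 were protein coding. The mice of the 2 ages did not overlap in CPM for 89 of the 185 genes (30 higher, 59 lower), against 210 of all 24563 genes (0.855%), 74 higher (0.301%) and 136 lower (0.554%). With libraries instead of mice as units, which treats libraries of 1 animal as independent, 1294 genes passed (5.27%), 579 higher (2.36%) and 715 lower (2.91%), and these included all 185 with the same sign. The count rested on single mice. It was 42 without 14mo40 and also without 14mo41, 64 without 14mo37, 72 without 4mo5, 97 without 14mo39, 99 without 4mo25, 104 without 14mo38, 113 without 4mo4 and 705 without 4mo29. All of the 185 genes that could be tested kept their sign in each of these fits. Of the 32 genes past the threshold that are named by rule, BB365896, Dhrs3, Lag3 and Ptprv kept their call without each mouse in turn. Flrt2 and Srxn1 lost it only without 14mo40, Hsph1 only without 14mo41 and Aars without either, and at the other end Lama5 kept it in 2 of 13 fits. Itih5, Pid1, Ntng1, F11r and Htra3 kept it in 3 of 13 fits. It was kept in 4 by Ldhb, Mmp2 and Gm26699, and in 5 by Htr2b, Sdf2l1 and Gm45061.

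Some complexes at 4 months lay in a range that no complex at 14 months entered. On the first principal component of log10(RPKM + 1), which held 7.99% of the variance of the 56 libraries, 15 of 40 libraries at 4 months scored below -5 and none of 16 at 14 months did. Taken as 16 independent libraries, that count of 0 would allow a share of up to 18.75%, but the libraries came from 5 mice and those of 1 mouse are not independent. The lowest 14-month library scored -4.09, and the 4-month libraries reached down to -21.0. The limit of -5 was set after the scores were seen. The 15 libraries came from 6 of the 8 mice. They were 3 of 8 in 4mo25, 3 of 8 in 4mo5, 3 of 4 in 4mo26, 2 of 4 in each of 4mo4, 4mo27 and 4mo28, and none in 4mo3 and 4mo29. The low side of the component was led by Ccn2, Slc38a3, Cited1, Amh and Ccn1, and the high side by the activin subunits Inhba and Inhbb. Averaged per mouse, the score was -1.64 ± 5.80 (SD, n = 8) at 4 months and 3.90 ± 1.78 (SD, n = 5) at 14 months. This difference of 5.54 did not pass a two-sided exact permutation test over mice (p = 0.0668, adjusted p = 0.134 over 2 components), and neither did the second component (5.11% of the variance, difference 1.81, exact p = 0.665). The mean distance between libraries of 1 mouse (1 minus Pearson's r) was 0.127 ± 0.00724 at 14 months (SD, n = 5) and 0.126 ± 0.0116 at 4 months (SD, n = 8), a difference that did not pass the test either (two-sided exact permutation p = 0.827).

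**Figure D1:**
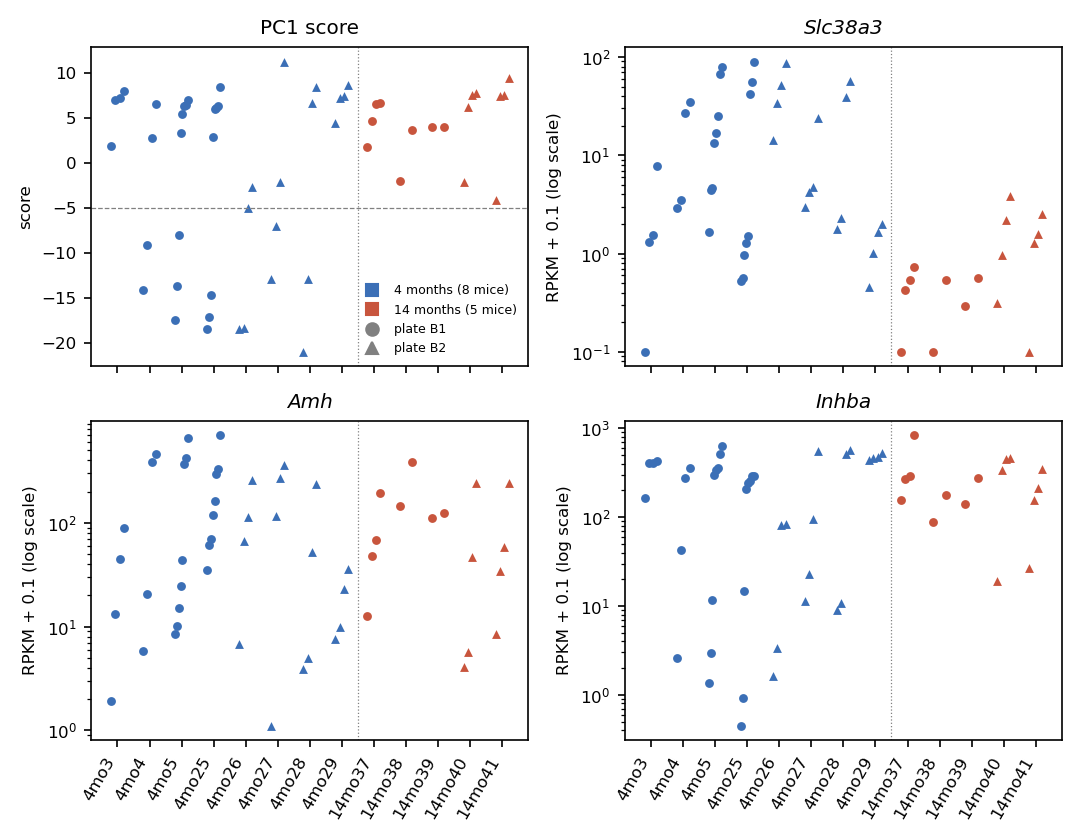
Each point is 1 of the 56 cumulus libraries, placed by mouse (x axis) and coloured by age, with circles for plate B1 and triangles for plate B2; the panels show the score on the first principal component, with a dashed line at -5, and the RPKM + 0.1 of Slc38a3, Amh and Inhba on log axes. Only 4-month libraries, 15 of 40, lie below the dashed line, and the Slc38a3 points of 4mo25 run from 0.432 to 89.8 RPKM.

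Slc38a3 is an example of this spread within animals. This sodium-coupled transporter carries glutamine, histidine and other neutral amino acids, and it is a known gene of cumulus cells next to a growing oocyte. Among the 8 libraries of the mouse 4mo25 its RPKM ran from 0.432 to 89.8, among those of 4mo5 from 1.57 to 78.4, and in the 4 of 4mo26 from 14.3 to 87.5. All 4 libraries of 4mo29 lay between 0.356 and 1.89 RPKM. The highest of the 16 libraries at 14 months held 3.72 RPKM, and 22 of 40 libraries at 4 months were above it, as were 7 of 24 at 2 months and 8 of 16 at 9 months. Itih5 ranged from 0 to 37.6 RPKM within 4mo25 and from 0.964 to 152.3 within 4mo28, whereas no 14-month library exceeded 1.05 RPKM. Amh ranged widely at both ages, from 35.01 to 696.8 RPKM within 4mo25 and from 3.95 to 241.9 within 14mo40.

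Over the 40 libraries at 4 months, the rank correlation of a gene's RPKM with the score of the first component had a median of -0.78 for the 12 largest decreases named below, and 10 of these 12 were under -0.5. Of the 94 called decreases with at least 10 CPM, 42 (44.7%) were under -0.5, against 10.7% of all 9706 genes at that level. These libraries share mice, and the component was built from the same values, so the correlations are a description. Lag3 (rho 0.37), Lamb1 (0.49), Gpx3 (-0.15) and Fam53a (-0.25) did not share the pattern. When the mean score of each mouse was added to the fit as a covariate, an alternative chosen after the spread was seen, 40 genes were called, 13 higher and 27 lower at 14 months. They included 32 of the 185, and all 185 kept their sign. Of the 24 genes named by size below, BB365896, Lag3, Ptprv and Dhrs3 kept their call in that fit. The score comes from the same values and its mean was lower at 4 months, so genes that follow it can lose part of their difference. Results with this covariate, here and below, are therefore a description as well.

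Of the genes with a mean of at least 10 CPM, 94 were lower and 37 higher at 14 months. The 12 largest decreases were Itih5, Slc38a3, Pid1, Pde7b, Lag3, Ntng1, Kcnk1, Lama5, Cecr2, F11r, Dhrs3 and Lamb1. Slc38a3 held 5.75 CPM in the lowest, 108.1 CPM in the median and 254.2 CPM in the highest of the 8 mice at 4 months. At 14 months it held 1.83, 1.098, 1.64, 9.53 and 7.46 CPM in 14mo37 to 14mo41. The groups overlapped only through 4mo29, the lowest mouse at 4 months, which lay under 14mo40 and 14mo41. The log2 fold change was -4.43 ± 0.82 (SE, adjusted p = 0.0191, edgeR), and the call was kept without each of 9 of the 13 mice in turn.

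Itih5, a heavy chain that binds hyaluronan, ran from 3.14 over 40.1 to 329.4 CPM (lowest, median, highest) at 4 months and was at 1.53, 1.65, 2.18, 3.93 and 4.41 CPM in the mice at 14 months (log2 fold change -4.87 ± 1.06, adjusted p = 0.0416, edgeR). Again 4mo29 was the lowest mouse at 4 months, under 14mo40 and 14mo41, and the other mice did not overlap. Without each mouse in turn the call held in only 3 of 13 fits, while the log2 fold change stayed between -5.17 and -4.32. Pid1, an adaptor that dampens insulin signalling, had 2.09, 17.3 and 73.3 CPM at 4 months and 0.306 to 3.73 CPM at 14 months (log2 fold change -3.66). Pde7b, which breaks down cyclic AMP, went from 7.58, 68.6 and 180 CPM at 4 months to 5.50, 3.29, 4.91, 13.2 and 13.2 CPM at 14 months (log2 fold change -3.20 ± 0.57, adjusted p = 0.0169, edgeR). All but 4mo29 of the 4-month mice lay above the 14-month mice for Pde7b. Among the 94 decreases with at least 10 CPM, 4mo29 was the lowest of the 4-month mice in 43, 4mo27 in 14 and 4mo3 in 13. The mice 4mo29 and 4mo3 are the mice without a library on the low side of the first component.

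Lag3 had another pattern. This receptor is best known from T cells, where it restrains activation. It held 9.45, 17.2 and 33.2 CPM at 4 months, with its highest value in 4mo29, and 5.50, 2.75, 4.91, 2.52 and 1.36 CPM at 14 months, without overlap (log2 fold change -2.45 ± 0.34, adjusted p = 0.00608, edgeR). Its call held without each of the 13 mice in turn. The summed immune markers overlapped between the ages, at 9.29 to 31.9 CPM at 4 months and 7.80 to 23.4 CPM at 14 months, with 27.5 CPM in 4mo29. Their part in the decrease of Lag3 was not tested. In single libraries Lag3 ranged from 1.15 to 26.6 RPKM at 4 months and from 0 to 5.74 RPKM at 14 months. Dhrs3, which reduces retinaldehyde to retinol, was also called without each mouse in turn. It held 21.97, 57.2 and 75.4 CPM at 4 months and 9.78, 12.6, 22.3, 15.98 and 17.3 CPM at 14 months (log2 fold change -1.80 ± 0.28, adjusted p = 0.00774, edgeR), with only 4mo29 under the highest 14-month mouse.

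Several of the remaining large decreases code for proteins of cell contact and membrane. Ntng1 (netrin-G1), Kcnk1 (a potassium leak channel) and F11r (a junctional adhesion molecule) had log2 fold changes of -2.32, -2.25 and -1.85. Lama5 and Lamb1, chains of laminins in basement membranes, had log2 fold changes of -2.23 and -1.76. Among the 9 laminin chains tested, a list added after the values were seen, these 2 passed, while Lama1 held 779 to 1096 CPM at 4 months and 1147 to 1416 CPM at 14 months and missed the threshold (log2 fold change 0.36, adjusted p = 0.0608, edgeR). Cecr2, a chromatin protein with a bromodomain, held 10.0, 16.2 and 42.3 CPM at 4 months and 5.50, 1.098, 5.45, 7.29 and 6.11 CPM at 14 months, without overlap (log2 fold change -1.86). Of the 10 measured Slc38 transporters, also listed afterwards, only Slc38a3 passed. Slc38a6 lay just outside the threshold (7.46 CPM in the median mouse at 4 months, 2.20 to 6.11 CPM at 14 months, adjusted p = 0.0502, edgeR), and Slc38a1 and Slc38a2 had log2 fold changes of -0.13 and -0.24.

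**Figure D2:**
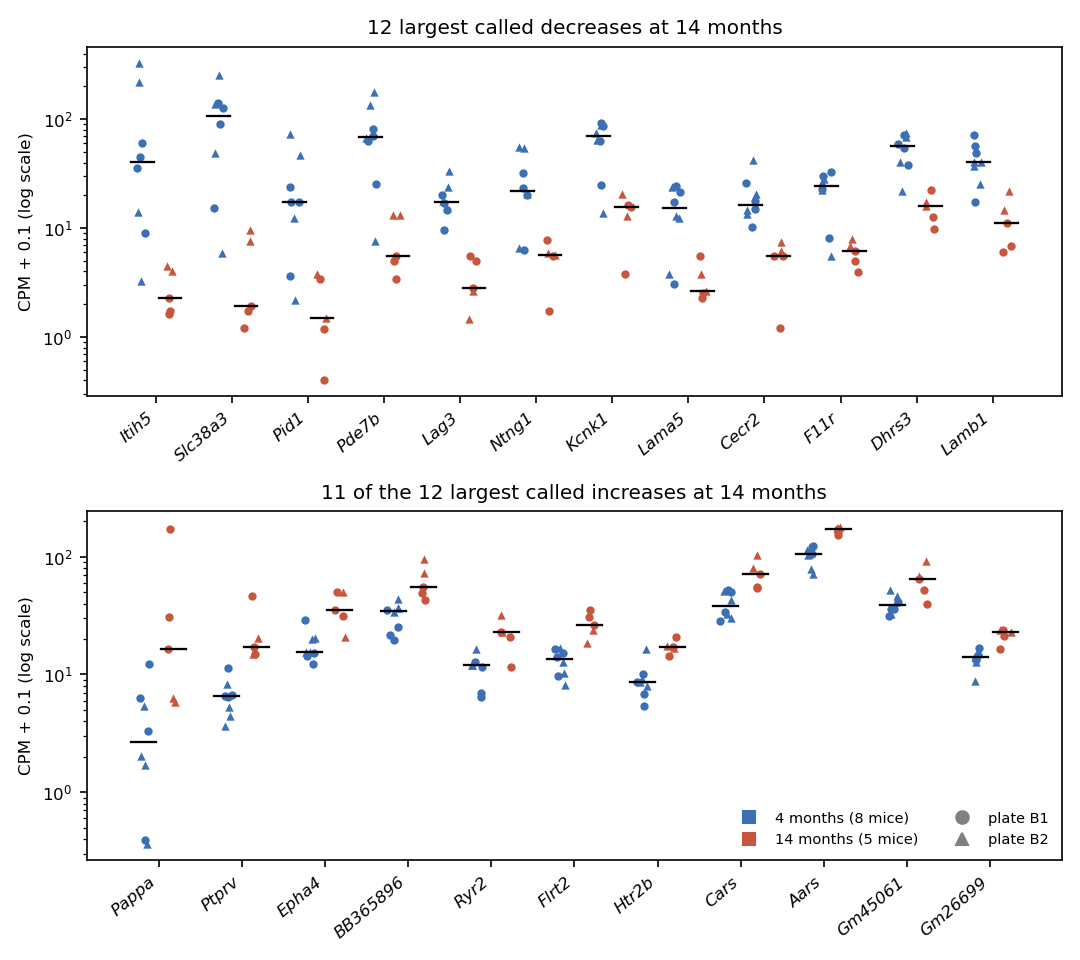
CPM + 0.1 per mouse on a log axis for the 12 largest called decreases (top) and 11 of the 12 largest called increases (bottom) among genes with a mean of at least 10 CPM; each point is 1 mouse, blue at 4 months (8) and red at 14 months (5), with circles for plate B1, triangles for B2 and bars at the median. Several decreases spread widely among the 4-month mice, as for Itih5 from 3.14 to 329.4 CPM. Among the increases, the groups of Aars are tight, from 71.7 to 124.3 CPM at 4 months and from 152.1 to 177.7 CPM at 14 months. Those of Pappa are wide, from 0.262 to 12.1 CPM at 4 months and from 5.77 to 173.3 CPM at 14 months.

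Further decreases were chosen after their values were seen. Fam53a had the smallest adjusted p of the comparison (0.00288, edgeR): it held 118.3, 145.5 and 160.2 CPM at 4 months and 75.8, 89.5, 91.6, 75.4 and 81.7 CPM at 14 months, a log2 fold change of -0.81 ± 0.09 without overlap. The Ras-association protein Rassf4 held 80.3 to 146.6 CPM at 4 months and 39.5 to 66.2 CPM at 14 months (log2 fold change -1.08). The axon guidance protein Sema5a fell from 794 to 1585 CPM at 4 months to 355 to 709 CPM at 14 months (log2 fold change -1.05, adjusted p = 0.0114, edgeR), again without overlap. Tgfbr3 (betaglycan, a co-receptor for inhibin) fell by 1.41 on the log2 scale, the proprotein convertase Furin by 1.08 and the inducible nitric oxide synthase Nos2 by 1.11. The versican-cleaving protease Adamts5 had a log2 fold change of -1.604.

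Some called genes of fatty acid and leucine metabolism were also picked after their values were seen, without a list of such genes behind them. The fatty acid receptor Cd36 held 61.5, 70.2 and 141.5 CPM at 4 months and 38.2, 37.9, 26.7, 50.5 and 48.8 CPM at 14 months, without overlap (log2 fold change -0.98 ± 0.14, adjusted p = 0.00707, edgeR). Acox3 and Ech1, enzymes of fatty acid oxidation, had log2 fold changes of -0.75 and -0.62, Ivd, of leucine breakdown, -0.67, and the triglyceride lipase Pnpla2 -0.50. The elongase Elovl6 rose from 73.0 to 123.6 CPM at 4 months to 138.4 to 195.6 CPM at 14 months (log2 fold change 0.57), and Hsd17b12, which also serves fatty acid elongation, by 0.56 on the log2 scale.

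The 12 largest increases included Pappa, Ptprv, Epha4, BB365896, Ryr2, Flrt2, Htr2b, Cars, Aars, Gm45061 and Gm26699. BB365896, an antisense gene on chromosome 6 (GRCm38, 6:58965655-59002083, plus strand) within the span of Fam13a on the other strand, held 19.7, 34.6 and 43.7 CPM at 4 months and 42.5, 48.9, 55.1, 72.6 and 95.3 CPM at 14 months. Only 14mo37 lay within the range of the 4-month mice. The log2 fold change was 1.045 ± 0.13 (adjusted p = 0.00412, edgeR), and the call held without each of the 13 mice in turn. Gm45061 lies inside BB365896 on the same strand and rose by 0.70 on the log2 scale, so that reads of the 2 may not be told apart. Whether counting used strand is not given in the sources used here, and Fam13a itself had a log2 fold change of 0.31. Ptprv, a receptor-type phosphatase gene annotated as a processed transcript in the mouse, held 3.52, 6.43 and 11.2 CPM at 4 months and 17.1, 46.1, 14.7, 20.2 and 14.9 CPM at 14 months, without overlap (log2 fold change 1.71 ± 0.27, adjusted p = 0.00774, edgeR).

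Pappa had the largest increase of these 12 (log2 fold change 3.24 ± 0.65, adjusted p = 0.0254, edgeR), and 1 mouse set its size. It held 0.262, 2.55 and 12.1 CPM at 4 months and 173.3, 16.5, 30.5, 6.17 and 5.77 CPM in 14mo37 to 14mo41. Without 14mo37 it was no longer called, at a log2 fold change of 1.86, and the call was also lost without 14mo40, 14mo41, 4mo25 and 4mo5. The 4 libraries of 14mo37 ran from 0 to 55.1 RPKM with a median of 1.26. In the same mouse Lhcgr, the receptor for luteinizing hormone, reached 53.8 CPM and spread from 0.862 to 72.2 RPKM over its libraries, Cyp17a1, an enzyme of androgen synthesis, reached 24.1 CPM, and Cyp19a1, the aromatase, 348.6 CPM. Lhcgr lay just outside the threshold (0.320, 1.52 and 15.9 CPM at 4 months, 6.44 to 53.8 CPM at 14 months, adjusted p = 0.0506, edgeR). The summed markers of luteinizing and mural granulosa cells were 1421 CPM in 14mo37, 888 to 1180 CPM in the other 14-month mice and 747 to 1184 CPM at 4 months. Their part in the increase of Pappa was not tested.

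Other increases fell on receptors and channels. The ephrin receptor Epha4 held 12.3, 15.3 and 28.6 CPM at 4 months and 50.1, 35.1, 31.1, 50.5 and 20.7 CPM at 14 months (log2 fold change 1.12). The calcium release channel Ryr2 (log2 fold change 1.035), the adhesion protein Flrt2 (1.03) and the serotonin receptor Htr2b (0.97) also rose. Flrt2 did so without overlap, from 8.01 to 16.5 CPM at 4 months to 18.3 to 35.4 CPM at 14 months, and was called in 12 of 13 fits without a mouse. The lincRNA Gm26699 rose by 0.69 on the log2 scale. Below 10 CPM, the cyclic nucleotide phosphodiesterase Pde10a rose as well, from 1.61 to 2.50 CPM at 4 months to 27.5, 1.65, 10.4, 5.61 and 4.75 CPM at 14 months (log2 fold change 2.13, 1.33 without 14mo37). The call of Pde10a was kept in 6 of 13 fits and lost without 14mo37, 14mo39, 14mo40, 14mo41, 4mo25, 4mo4 and 4mo5.

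Genes of cholesterol synthesis and uptake lay higher at 14 months as a list. All 24 had a positive log2 fold change, with a median of 0.58, against 11294 positive of all 24563 genes and a median of -0.03. Past the threshold was 1 member, and 19 of 24 had an unadjusted p under 0.05 (edgeR), against 3450 of all 24563 genes. With libraries as units 15 members were called, all higher. Cyp51, which removes a methyl group from lanosterol, held 57.6 to 158.5 CPM at 4 months and 158.1 to 219.8 CPM at 14 months and missed the threshold (log2 fold change 0.72, adjusted p = 0.0580, edgeR). The members summed to 1360, 2892 and 3614 CPM in the lowest, median and highest 4-month mice and to 4356, 4053, 4166, 3930 and 4662 CPM at 14 months, so the sums did not overlap. The same sum, on a scale set over all ages, was 2728 to 4315 CPM at 2 months and 2860 to 3200 CPM at 9 months, so the mice at 2 months overlapped those at 14 months and the mice at 9 months did not. With the first-component score as a covariate, 20 of 24 members stayed positive with a median of 0.26, and none was called.

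**Figure D3:**
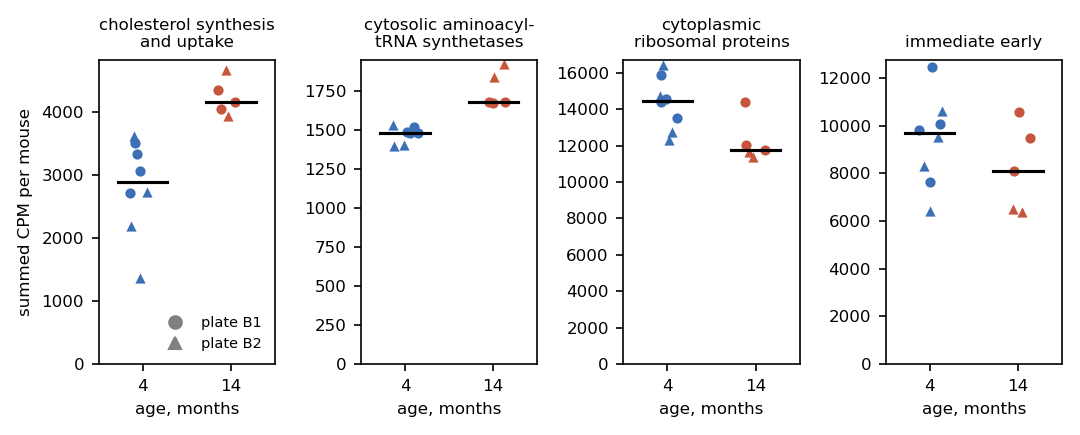
Summed CPM per mouse of 4 gene lists at 4 months (blue, 8 mice) and 14 months (red, 5 mice), with circles for plate B1, triangles for plate B2 and bars at the median; each y axis starts at 0. The cholesterol and synthetase sums do not overlap between the ages, and the ribosomal and immediate early sums do.

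The cytosolic aminoacyl-tRNA synthetases, which load amino acids onto tRNAs, were listed after the calls of Aars and Cars were seen. Of the 20 enzymes, 17 had a positive log2 fold change (median 0.22), Aars and Cars were called, and 11 had an unadjusted p under 0.05, all higher, against 185 called (0.753%) and 3450 at an unadjusted p under 0.05 of all 24563 genes. Aars (alanine) held 71.7, 105.6 and 124.3 CPM at 4 months and 171.7, 152.1, 160.8, 176.1 and 177.7 CPM at 14 months (log2 fold change 0.70 ± 0.12, adjusted p = 0.0114, edgeR). Cars (cysteine) held 28.2, 38.1 and 52.2 CPM at 4 months and 70.6, 53.8, 55.1, 79.4 and 102.4 CPM at 14 months (log2 fold change 0.88 ± 0.18, adjusted p = 0.0281, edgeR). For both, each 14-month mouse lay above each 4-month mouse. The summed CPM of the list was 1398, 1484 and 1531 (lowest, median, highest) at 4 months and 1675 to 1924 at 14 months. Of the nonzero values of Aars, 55.4% were not whole, which marks reads shared with other places in the genome, so its level is uncertain.

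Several synthetase genes carry the composite element TTGCATCA, a known form of the amino acid response element that the transcription factor ATF4 binds with a partner. RefSeq promoter windows (GRCm38.p6, 250 bases before to 50 after the start) were found for 12 of the 20 enzymes, and 4 of these enzymes held the element on either strand. Over all windows, counted singly and not per gene, 294 of 32851 held it (0.895%). Stretches of 30 bases of 3 of them are shown, for the members Iars, Tars and Yars, so that the element can be seen in its place. Capitals mark the element, which Yars holds in reverse complement, TGATGCAA.

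Iars, 13:49682126-49682155, plus strand: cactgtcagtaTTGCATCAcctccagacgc
Tars, 15:11399655-11399684, minus strand: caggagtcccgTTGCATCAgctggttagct
Yars, 4:129189895-129189924, plus strand: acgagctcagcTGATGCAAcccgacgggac

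The element began 15 bases before the start in Tars, and 7 and 3 bases after the start in Iars and Yars. The log2 fold changes of Iars, Tars and Yars were 0.37, 0.46 and 0.32, none past the threshold. Those of the 8 enzymes whose window lacked the letters ranged from -0.09 to 0.32 (median 0.13). Another 8 enzymes, Cars among them, had no window and were not searched, and theirs ranged from 0.06 to 0.88 (median 0.17). No test was made of this, and a match of letters does not show that a factor bound there.

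The sterol element CACCCCAC was searched on both strands as a fixed form of the site through which SREBP factors act. It was found for 2 of the 17 genes of the cholesterol list that had a window. Over all windows, counted singly and not per gene, it was in 942 of 32851 (2.87%). The stretches are shown for the members that hold the letters. Acat2 makes acetoacetyl-CoA and Hmgcs1 the next intermediate, HMG-CoA. Their log2 fold changes were 0.64 and 0.59, with adjusted p of 0.102 and 0.117 (edgeR).

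Acat2, 17:12960888-12960917, minus strand: tggatcctccaCACCCCACcctaacccgac
Hmgcs1, 13:119690204-119690233, plus strand: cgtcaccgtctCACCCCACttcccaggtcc

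Cytoplasmic ribosomal protein genes went the other way. Of 88 genes, 85 had a negative log2 fold change with a median of -0.24, none was called, and 51 had an unadjusted p under 0.05 (edgeR), all lower. Of all 24563 genes, 11294 had a positive log2 fold change and 3450 an unadjusted p under 0.05. Their summed CPM was 12325, 14456 and 16453 at 4 months and 11394 to 14404 at 14 months, and the ranges overlapped. With the score covariate 82 of 88 stayed negative, with a median of -0.13. In the first set, from other mice, 85 of 87 were negative in old against young cumulus cells, with a median of -0.21.

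**Figure D4:**
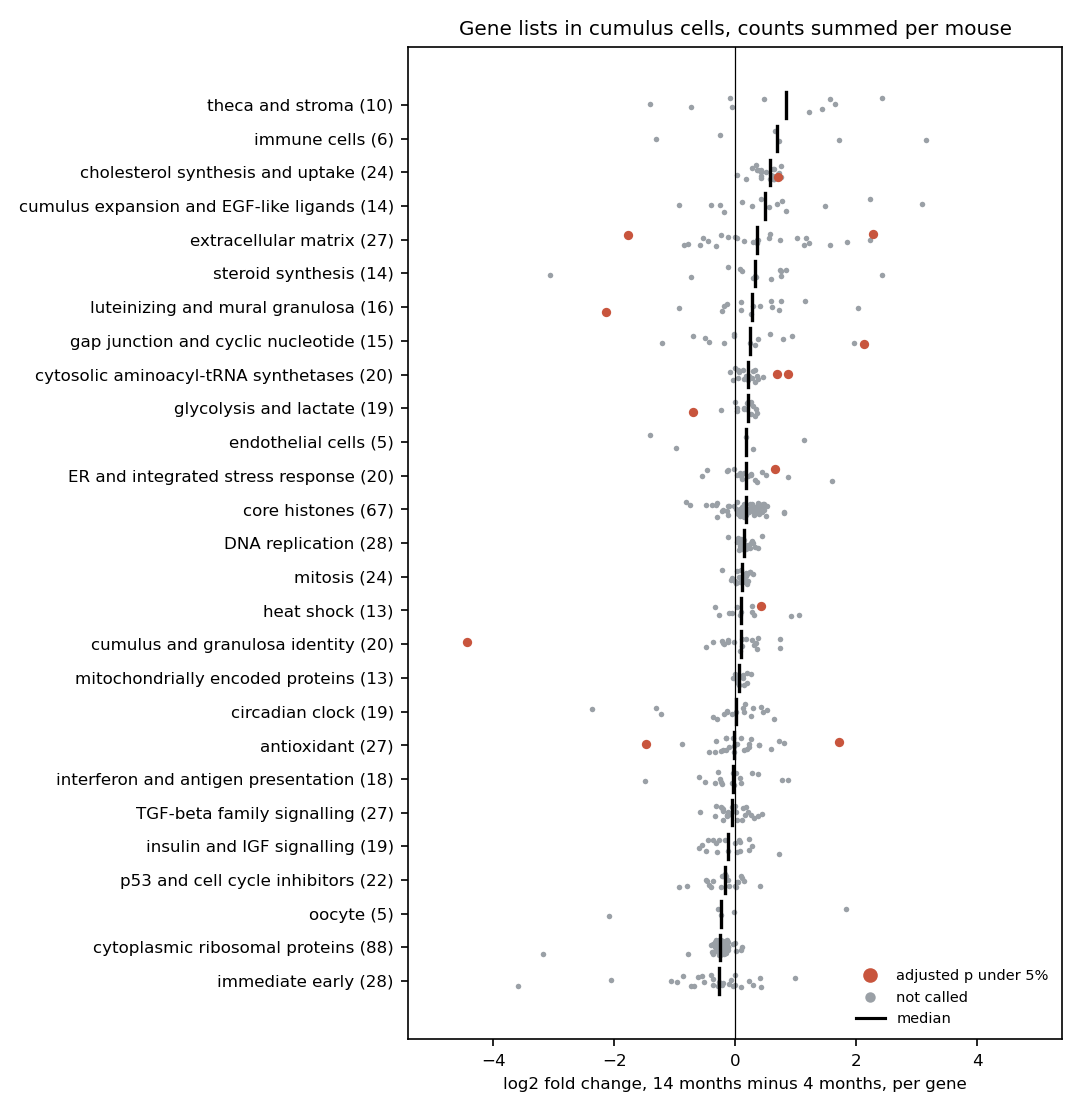
Log2 fold change (14 minus 4 months, counts summed per mouse) of each tested member of 27 gene lists, with the number tested in brackets, a bar at the median and red points for genes at an adjusted p under 5%. The 24 cholesterol genes all lie right of 0 and 85 of 88 ribosomal protein genes left of it, with 1 and 0 red points.

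Immediate early genes, which respond within minutes to signals and to handling of tissue, gave no call in either direction, with 21 of 28 negative (median -0.27), 11 at an unadjusted p under 0.05 (9 lower) and 5 called with libraries as units (4 lower). Egr1 lay just outside the threshold: it held 1380, 1798 and 2310 CPM at 4 months and 1281, 1560, 1291, 1141 and 1004 CPM at 14 months (log2 fold change -0.52 ± 0.12, adjusted p = 0.0502, edgeR). Fos overlapped widely (1945 to 3446 and 1598 to 2928 CPM, log2 fold change -0.28, adjusted p = 0.345, edgeR). Ccn2, a target of the Hippo pathway, held 1.05, 126.8 and 244.6 CPM at 4 months and 8.56, 3.29, 1.09, 11.5 and 22.4 CPM at 14 months (log2 fold change -3.59 ± 0.84, adjusted p = 0.0528, edgeR). It was the leading gene on the low side of the first component. With the score covariate, the median of this list turned positive, at 0.16.

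Glycolysis supplies pyruvate to the oocyte, and 17 of the 19 entries of this list were positive (median 0.21), against 11294 of all 24563 genes. None of the positive entries had an unadjusted p under 0.05 (edgeR), against 3450 of all 24563 genes in either direction. The 1 entry that did was a decrease and the only call. It was Ldhb, the subunit of lactate dehydrogenase that favours pyruvate, which held 68.5, 116.8 and 177.4 CPM at 4 months and 65.1, 79.1, 69.8, 69.5 and 80.4 CPM at 14 months (log2 fold change -0.69 ± 0.15, adjusted p = 0.0471, edgeR). Ldha held 852 to 2799 and 2187 to 2919 CPM (log2 fold change 0.34, adjusted p = 0.428, edgeR). With the score covariate 3 of 19 entries were positive, with a median of -0.11.

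Of the 27 antioxidant genes, 2 were called in opposite directions (median -0.02), against 185 calls among all 24563 genes (0.753%). An unadjusted p under 0.05 (edgeR) was held by 12 of the 27 (8 higher, 4 lower), against 3450 of all 24563 genes. Srxn1, which restores oxidized peroxiredoxins, held 0.936, 2.04 and 3.70 CPM at 4 months and 7.94, 14.8, 9.27, 4.77 and 3.05 CPM at 14 months (log2 fold change 1.72 ± 0.29, adjusted p = 0.0141, edgeR). Gpx3, a secreted glutathione peroxidase, held 23.7, 27.5 and 56.7 CPM at 4 months and 9.47, 9.34, 5.45, 18.8 and 17.3 CPM at 14 months, without overlap (log2 fold change -1.47 ± 0.29, adjusted p = 0.0249, edgeR). The oxidative stress gene Osgin1, chosen after its values were seen, rose by 1.84 on the log2 scale. Of the 20 genes of the stress responses of the endoplasmic reticulum, 15 were positive (median 0.18) and 8 had an unadjusted p under 0.05 (6 higher, 2 lower, edgeR). Of these, Sdf2l1 was called (log2 fold change 0.65). Of 13 heat shock genes, 9 were positive (median 0.10) and 4 had an unadjusted p under 0.05, all higher (edgeR). Hsph1, a co-chaperone of Hsp70, was called (172.4, 218.1 and 255.9 CPM at 4 months, 229.2 to 385.0 CPM at 14 months, log2 fold change 0.43).

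Of 27 extracellular matrix genes, 2 were called, against 185 of all 24563 genes (0.753%). An unadjusted p under 0.05 (edgeR) was held by 11 of the 27 (7 higher, 4 lower), against 3450 of all 24563 genes. Of the 2 called, Mmp2, a gelatinase at low level, rose (0, 0.542 and 2.20 CPM at 4 months, 1.64 to 6.44 CPM at 14 months, log2 fold change 2.27) and Lamb1 fell. Vcan, the versican of the expanding cumulus matrix, lay just outside the threshold (592 to 1121 and 952 to 1320 CPM, log2 fold change 0.56, adjusted p = 0.0577, edgeR). No gene of the expansion list was called (edgeR), with 10 of 14 positive, a median of 0.50 and 5 at an unadjusted p under 0.05, all higher. Its summed CPM was 952 to 1468 at 4 months and 1408 to 1839 at 14 months. Among 16 markers of luteinizing and mural granulosa cells, only Htra3, a serine protease, passed (adjusted p = 0.0481, edgeR). It fell by 2.13 on the log2 scale, from 2.88 to 23.1 CPM to 1.53 to 4.91 CPM, and kept its call in 3 of 13 fits without a mouse.

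No member was called in the lists of steroid synthesis (11 of 14 positive, median 0.33), TGF-beta family signalling (11 of 27, median -0.05), p53 targets and cell cycle inhibitors (7 of 22, median -0.16), interferon and antigen presentation (7 of 18, median -0.04), insulin and IGF signalling (8 of 19, median -0.11), circadian clock (10 of 19, median 0.02), DNA replication (27 of 28, median 0.14), mitosis (20 of 24, median 0.12), core histones (53 of 67, median 0.17) and mitochondrially encoded proteins (11 of 13, median 0.06). With the score covariate DNA replication had 19 of 28 positive (median 0.05) and mitosis 11 of 24 (median -0.01). At an unadjusted p under 0.05 (edgeR) these lists held between 1 and 9 genes each, against 3450 of all 24563 genes. The 9 were in steroid synthesis, with 7 higher and 2 lower of 14 tested. A positive log2 fold change was held by 11294 of all 24563 genes. The genes with the smallest p were Cyp17a1 in steroid synthesis (log2 fold change 2.42, adjusted p = 0.0592), Foxo1 in insulin signalling (-0.45, adjusted p = 0.0608), Cry2 in the clock (0.52, adjusted p = 0.0730), Inha in the TGF-beta family, Rfc3 in DNA replication (0.44, adjusted p = 0.141), Bst2 in the interferon list (-0.29, adjusted p = 0.144), Hist1h2bc among histones (0.47, adjusted p = 0.173), Eda2r among p53 targets (-0.94, adjusted p = 0.185), Aurka in mitosis (0.22, adjusted p = 0.301) and mt-Nd1 (0.25, adjusted p = 0.336), all by edgeR. The forkhead factor Foxo1, which insulin signalling keeps out of the nucleus, held 1188 to 2006 CPM at 4 months and 958 to 1260 CPM at 14 months. The gap junction and cyclic nucleotide list held 1 call, Pde10a, with 8 of 15 positive and a median of 0.25. The main gap junction gene of these cells, Gja1, held 5888 to 8246 CPM at 4 months and 6019 to 7414 CPM at 14 months (log2 fold change -0.01, adjusted p = 0.965, edgeR). The senescence marker Cdkn1a held 4.16 to 18.0 and 4.39 to 15.4 CPM (log2 fold change -0.15, adjusted p = 0.900, edgeR).

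Hormone genes of the growing follicle overlapped between the ages. Amh held 32.2, 255.0 and 371.2 CPM at 4 months and 115.2, 426.7, 194.6, 123.1 and 172.0 CPM at 14 months (log2 fold change -0.21 ± 0.45, adjusted p = 0.899, edgeR). Inha held 2283 to 3982 and 2823 to 5248 CPM (log2 fold change 0.32, adjusted p = 0.110, edgeR). Kitl, whose product acts on the Kit receptor of the oocyte, held 37.8 to 88.7 and 63.2 to 137.2 CPM (log2 fold change 0.75, adjusted p = 0.0933, edgeR), and Cyp19a1 26.9 to 164.8 and 111.3 to 348.6 CPM (log2 fold change 0.74, adjusted p = 0.258, edgeR). Has2, the hyaluronan synthase of cumulus expansion, was at 12.2 CPM or less in all mice (adjusted p = 0.634, edgeR).

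A block of 21 genes on chromosome X (GRCm38, X:147765991-149984982) that holds Luzp4 and Ott was found after the values were seen. The paper places its members Luzp4, Gm15093, Gm15127 and Gm15109 in a hub of genes that rise with age in cumulus cells. The block is a region of near-identical copies, and between 85% and 100% of the nonzero values of each gene were not whole, so that single genes cannot be told apart and the sum is given. All 21 had a positive log2 fold change (median 2.87) and 9 were among the 67 called increases. As the copies share reads, these are not 21 separate results. The summed CPM was 3.55, 5.69 and 16.2 (lowest, median, highest) at 4 months and 24.7, 35.3 and 55.0 at 14 months, so that no mouse of the younger group reached the older one. These sums rest on few counts, from 14 in 4mo26 to 55 in 4mo3 at 4 months and from 45 in 14mo38 to 162 in 14mo41. The level assigned to Luzp4 was 0.268 to 1.77 CPM at 4 months and 3.67, 7.14, 2.18, 3.65 and 4.75 CPM at 14 months. None of its nonzero values was whole, so this is not a level of Luzp4 alone. On a scale set over all ages, the sum was 0 to 1.29 CPM in 5 mice at 2 months, 3.53 to 16.1 in 8 at 4 months, 15.2 to 50.4 in 4 at 9 months and 24.5 to 54.5 in 5 at 14 months. The mice at 2 months lay below all others, and those at 9 and 14 months overlapped. In oocytes the sum was 0.973 to 2.52 CPM at 4 months and 0.970 to 3.12 CPM at 14 months. In the first set, it was 0 to 0.814 CPM under 2 young mouse labels and 62.3 to 67.2 CPM under 2 old ones. There 8 of the 21 genes were called, all higher, out of 10 called increases among all 23091 genes (edgeR). With the score covariate all 21 genes stayed positive, with a median of 2.03, and 1 of the 21 was called.

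**Figure D5:**
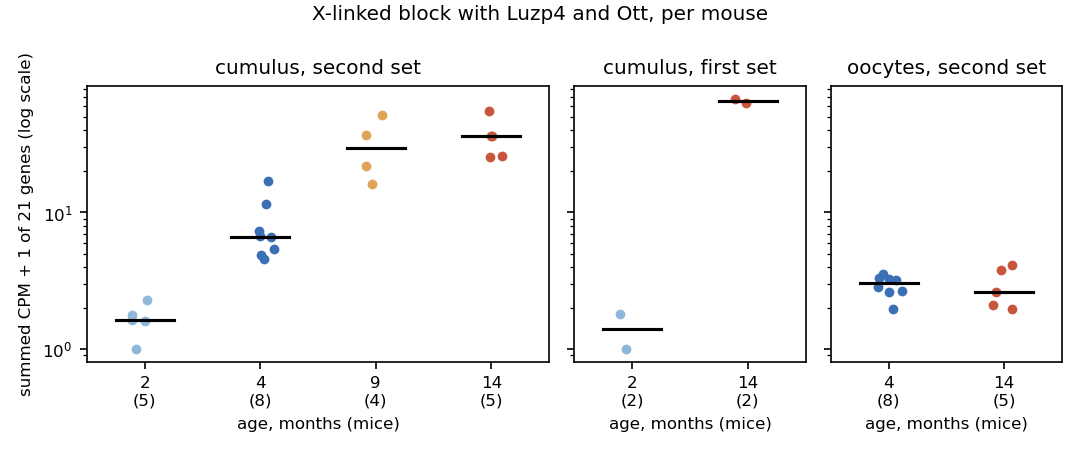
Summed CPM + 1 of the 21 genes of the X-linked block on a log axis, 1 point per mouse with bars at the median, for cumulus cells of the second set at 2, 4, 9 and 14 months, cumulus cells of the first set at 2 and 14 months and oocytes of the second set at 4 and 14 months. Cumulus sums lie between 0 and 1.29 CPM at 2 months and between 24.5 and 54.5 CPM at 14 months in the second set, while oocyte sums stay at 3.12 CPM or less.

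At 2 and 9 months the named genes did not follow 1 order. The 14-month mice are the same animals in each case, so levels are set side by side without a test. BB365896 stood at 29.4 ± 7.98 CPM at 2 months (SD, n = 5), 31.2 ± 8.45 at 4 (n = 8), 57.6 ± 15.2 at 9 (n = 4) and 62.4 ± 21.1 at 14 (n = 5), and Gm26699 at 13.9 ± 2.42, 13.4 ± 2.38, 22.2 ± 2.54 and 21.5 ± 3.07 CPM. For both, the neighbours 2 and 4 months and the neighbours 9 and 14 months lay within their spread of each other. Slc38a3 stood at 31.5 ± 33.01, 100.8 ± 79.7, 38.3 ± 20.5 and 4.28 ± 3.86 CPM in the same order of ages, with its highest mean at 4 months. Itih5, at 11.3 ± 5.89, 88.3 ± 117.6, 10.2 ± 3.10 and 2.72 ± 1.33 CPM, and Pid1, at 7.07 ± 4.40, 24.2 ± 23.7, 5.56 ± 2.39 and 1.95 ± 1.46 CPM, also had their highest mean at 4 months and their lowest at 14 months. Lag3 stood at 13.4 ± 8.86, 18.6 ± 7.02, 6.96 ± 5.14 and 3.38 ± 1.73 CPM. Aars stood lowest at 4 months, with 137.4 ± 33.4, 102.1 ± 19.1, 141.4 ± 22.3 and 166.4 ± 10.99 CPM.

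The first set held cumulus cells of 2 young mouse labels at 2 months and 2 old mouse labels at 14 months, apart from the animals above. The old label Old1_2 may pool more than 1 animal, so a value per label is not always a value per mouse. In the same test, without a plate term, 41 of 23091 genes were called there (0.178%). Of the 182 called genes that could be tested, 106 had the same sign in both sets, against 11473 of 22446 among all genes tested in both. Cecr2 was called in both sets, lower in old mice (log2 fold change -2.57 ± 0.30, adjusted p = 0.0441, edgeR), with 10.98 and 13.7 CPM under the young and 1.496 and 2.36 CPM under the old labels. Luzp4, Gm15127, Gm15114 and Ott of the X-linked block were also called in both sets, higher in old mice, though these copies share reads. BB365896 held 25.9 and 35.5 CPM under the young and 52.96 and 76.0 CPM under the old labels, a log2 fold change of 1.105 that missed the threshold (adjusted p = 0.175, edgeR). Lag3 (log2 fold change 0.60), Dhrs3 (0.24) and Ptprv (-0.31) had the other sign there, none past the threshold. Fam53a (0.09), Rassf4 (0.14), Sema5a (0.02), Adamts5 (-0.04), Acox3 (-0.03), Ech1 (-0.06), Elovl6 (-0.01) and Hsd17b12 (-0.33) were not past it either, nor was Cd36 (-0.74, adjusted p = 0.269, edgeR). Cholesterol genes were positive in 7 of 24 (median -0.12) and synthetases in 1 of 20 (median -0.13), with Cars at -0.87 (adjusted p = 0.0808, edgeR). Immediate early genes were negative in 28 of 28 (median -1.43), with 11 called. The youngest group was 2 months in the first set and 4 months here, so the comparisons differ in age as well as in mice.

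Oocytes of the same mice gave 51 calls among 23513 genes (0.217%) between 4 and 14 months. Of the 185 cumulus genes, 153 could be tested in oocytes, and none was called there (24 at an unadjusted p under 0.05, against 2479 of all 23513 genes, edgeR). Aars (log2 fold change -0.03), Dhrs3 (0.07) and Cecr2 (-0.003) were close to 0 there, Inha was called at 1.18 (adjusted p = 0.0120, edgeR), and Slc38a3 (-4.04) and Pde7b (-2.84, adjusted p = 0.0514, edgeR) had the sign seen in cumulus cells without passing the threshold.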

How the data were processed

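RamDA-seq reads of 56 cumulus libraries were used (40 at 4 months, 16 at 14 months). Trimming by the authors was followed by alignment to GRCm38 (HISAT2 2.0.5) and by counting against the GENCODE annotation (featureCounts 1.5.1), in which reads that map to several places were shared, so the deposited expected counts are not all whole (33.2% of nonzero values were off a whole number by more than 0.004). They were rounded to whole numbers after summing per mouse. The deposited RPKM values, calculated by the authors from these counts, were used for principal components (26590 genes, pseudocount of 1) and for levels in single libraries. Of 42349 gene identifiers, 42147 had a symbol in the annotation used here.

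Sums per mouse (8 and 5 mice) were tested with edgeR 4.0.16 in R 4.3.3 (TMM, quasi-likelihood, plate as covariate, Benjamini-Hochberg 5% over 24563 genes), a procedure checked on simulated data. The study took libraries as units, given here as the second fit. The test had been planned for whole counts, and rounding served to fit expected counts to it. No molecular identifiers were used. The limit given for a count of 0 covers counting error only, whereas SDs and SEs hold the spread between mice, and none of 1540 pairs of libraries agreed within sampling noise (smallest chi-square per degree of freedom 1.91). Labels place libraries in separate mice, and p-values of the tests over mice set the difference between the ages against the spread between those mice. With libraries as units, the p-values rest on the spread between libraries instead. Named genes were the 12 largest called changes each way at 10 CPM or more, called or leading list members, and Fos, Amh, Inha, Cdkn1a, Cyp19a1, Lhcgr, Has2 and Kitl. The comparison, the gene lists and this rule were chosen with earlier results of these data known. Permutation tests ran in scipy 1.17.1 and alternatives in DESeq2 1.42.0 and limma 3.58.1. Promoter sequences came from RefSeq. Some genes that the rule names and 1 promoter stretch are not reported here.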

Additional observations from a re-analysis of the deposited data

Results flagged for a closer look

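In groups of 8 and 5 mice, 10 values of named genes stood apart from the rest of their group by Dixon's criterion, out of 110 groups examined. The rate of about 1 in 20 groups that the criterion allows holds for normally distributed values. That was not checked for these CPM, some of which are near 0, so the number of flags is not compared with it. The mouse 14mo37 stood apart for Pappa at 173.3 CPM and for Cyp17a1 at 24.1 CPM. The mouse 14mo38 stood apart for Ptprv at 46.1 CPM and for Amh at 426.7 CPM. At 4 months, 4mo4 had 6.31 CPM of Cyp17a1, 4mo27 16.2 CPM of Htr2b and 4mo29 88.7 CPM of Kitl. The macrophage gene Lyz2 had 8.72 CPM (16 counts) in 14mo39 and 0.723 CPM (5 counts) in 4mo5, each the highest of its group. The oocyte gene Zar1 had 0.561 CPM (2 counts) in 14mo40 and 0 in the other 14-month mice. Without 14mo37, Pappa kept its sign and lost its call, and Ptprv kept its call without 14mo38. Of the 55 named genes, none separated the ages completely in cumulus cells and completely the other way in oocytes of the same mice.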

How the results depend on the processing

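All of the 185 genes that could be tested kept their sign in each alternative, while the number of calls moved. It was 190 with DESeq2's size factors, 273 with filterByExpr, 647 with no filter on low counts, 119 without the plate, 340 with all ages in 1 fit, 82 with the share of oocyte markers as a covariate, 698 with DESeq2, 743 with limma-voom and the mouse as a random effect, 1294 with libraries as units and 40 with the score of the first component, an alternative chosen after seeing the data. Plate B1 alone gave 93 calls and plate B2 alone, with 2 mice at 14 months, gave 0 (1809 genes at an unadjusted p under 0.05). The cause of these moves was not tested. Leaving out 1 mouse gave 42 (without 14mo40 or 14mo41) to 705 (without 4mo29) calls. With libraries as units, plate B1 gave 200 calls, plate B2 122 and leaving out 1 mouse 598 (without 14mo40) to 1488 (without 4mo29). List members called were 59 with DESeq2, 61 with limma-voom, 104 with libraries as units, 50 with no filter, 7 without the plate, 0 on plate B2, 24 with all ages, 6 with oocyte markers, 1 with the score and 1 (without 14mo40) to 60 (without 4mo29). Signs of the log2 fold change turned for Amh (0.298 by limma-voom, 0.896 with the score, and -0.53 to 0.028 without 1 mouse, positive without 4mo27), Has2 (-0.218 on plate B1, -0.12 with the score) and Cdkn1a (0.746 on plate B2, and -0.50 to 0.063 without 1 mouse, positive without 14mo38 and without 14mo39), none of them called. Of the 32 named genes past the threshold, 4 stayed past it without each mouse in turn. No paired analysis was possible because the 2 ages share no mouse numbers.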
